A study of Mus musculus with 6 samples.

Results

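Toll-like receptors are membrane sensors of microbial molecules, and the genes described here are 7 of them (Tlr1, Tlr2, Tlr4, Tlr6, Tlr7, Tlr9 and Tlr13) with the co-receptor Cd14, the adaptor Myd88 and the inhibitory kinase-like gene Irak3. All 10 were chosen by symbol and found, out of 23283 gene symbols in the files. They were measured in polyadenylated RNA of eosinophils of the gut, taken in BALB/c mice (wild type) out of the lamina propria of the small intestine. The cells were cultured for 4 hours, in 3 cultures with nothing added (untreated) and in 3 cultures with GM-CSF at 10 ng/ml. GM-CSF is a growth factor that acts on eosinophils. The way the cells were isolated, and whether the replicate cultures had different animals as their source, are not given in the sources used here. The p-values below therefore measure the spread between these cultures, which may be technical.

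Cell surface receptors of the family detect parts of the bacterial wall. TLR4 recognises lipopolysaccharide together with CD14 and the secreted protein MD-2 (gene Ly96), and TLR2 recognises lipoproteins as a pair with TLR1 or with TLR6. TLR7, TLR9 and TLR13 work in endosomes, where they detect single-stranded RNA, unmethylated DNA and bacterial ribosomal RNA. Nearly all of them signal through the adaptor MyD88, which recruits IRAK kinases and the ubiquitin ligase TRAF6, and IRAK-M, the product of Irak3, restrains this step. Eosinophils are granulocytes that reside in the healthy small intestine, close to the bacteria of the gut.

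Levels are in FPKM (fragments per kilobase of transcript, scaled to the mapped total of the library), a unit scaled by length, so that genes can be compared within a library. The libraries held between 0.820 and 1.32 gigabases of mapped sequence. This depth and a read length of 36 nt were both worked out from the deposited coverage. The eosinophil surface markers Siglec5 (the files' symbol for Siglecf) at 158.7 to 180.8 FPKM and Ccr3 at 230.4 to 315.5 were high in all 6 libraries. Other eosinophil markers differed in level, and some of them fell with GM-CSF, as given further below. Changes were tested with limma on log2(FPKM + 1) over the 10106 genes whose mean reached 1 FPKM, with an adjusted p under 0.05 as the threshold. Every log2 change below is GM-CSF minus untreated on that scale, given ± its standard error, with the limma p adjusted over all those genes. Every ± after a level in FPKM is an SD with n = 3. Of those genes 7.68% were raised (776) and 14.2% were lowered (1436), with a median log2 change of -0.05. The excess of falls came down to 1008 raised and 1040 lowered with median-of-ratios scaling of the libraries, and to 950 and 1111 with quantile normalization. Without untreated replicate 2 the number of genes lowered was 888.

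Myd88 was the most abundant of the 10 genes in both groups, and Tlr13 was the most abundant receptor. In untreated libraries the order by mean level was Myd88 (76.1 FPKM), Tlr13 (39.9), Irak3 (31.5), Tlr6 (21.8), Cd14 (20.7), Tlr4 (8.39), Tlr1 (4.42), Tlr9 (2.63), Tlr2 (0.692) and Tlr7 (0.117). Among neighbours in that order, the libraries of Tlr6 and Cd14 overlapped, and those of each other gene lay wholly above the next. In GM-CSF libraries Cd14, Tlr4, Tlr6 and Irak3, at means of 25.3, 21.7, 21.4 and 20.7 FPKM, formed a run in which each overlapped its neighbour, and Tlr2 overlapped Tlr7. Myd88 ranked 1029 by mean level among all symbols in untreated and 678 in GM-CSF libraries.

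**Figure D1:**
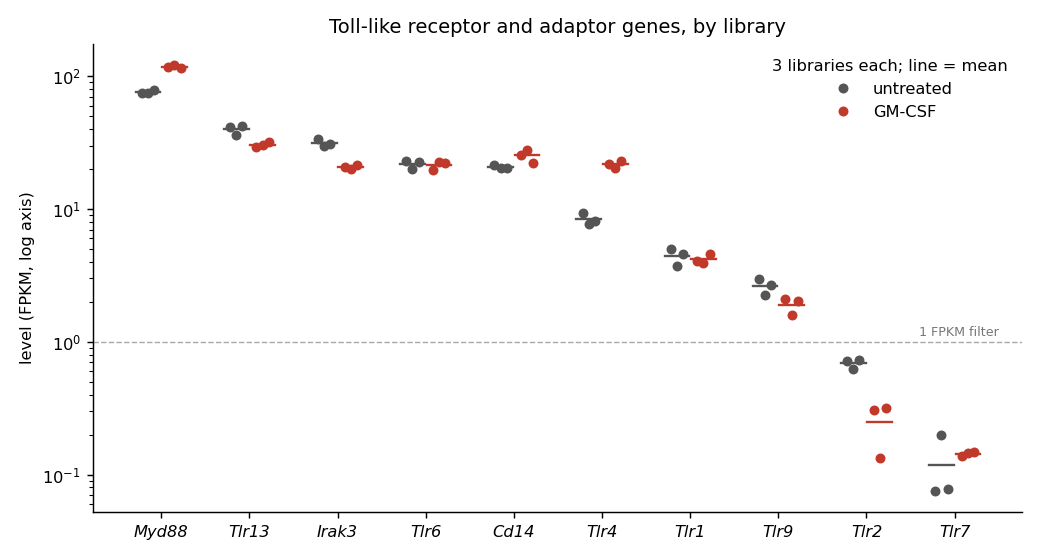
Level in FPKM (log axis) of the 10 genes in each library, ordered by the untreated mean, with points for the 3 untreated (grey) and 3 GM-CSF (red) libraries and a line at each group's mean. Tlr4 goes from 8.39 to 21.7 FPKM and comes level with Cd14 and Tlr6, Myd88 stays highest, and Tlr2 and Tlr7 lie under the dashed filter at 1 FPKM.

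Tlr1 and Tlr6, neighbours on chromosome 5 with 19491 bases between them, are close copies of each other, and this bears on how their reads could be told apart. The coding sequences (GENCODE M21, GRCm38) are 2388 and 2421 nt long and share an identical run of 229 nt, which lies at 1468 to 1696 of the coding sequence of Tlr1 and at 1507 to 1735 of that of Tlr6. In the genome it is chr5:64925537-64925765 in Tlr1 and chr5:64953828-64954056 in Tlr6, both on the minus strand and in an exon. The run is shown because a read of 36 nt that falls wholly inside it matches both genes. It is printed 5′ to 3′ on the coding strand, all in lower case because no letter is singled out.

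Tlr1 and Tlr6 shared coding run: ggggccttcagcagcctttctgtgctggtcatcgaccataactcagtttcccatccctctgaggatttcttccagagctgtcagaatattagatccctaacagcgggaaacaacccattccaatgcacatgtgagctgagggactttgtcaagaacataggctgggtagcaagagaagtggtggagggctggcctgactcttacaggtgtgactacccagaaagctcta

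Of all 36-nt words in the annotated transcripts, 18.1% of those of Tlr1 and 15.4% of those of Tlr6 occurred in transcripts of another gene. For Tlr2, Tlr7, Tlr9, Tlr13, Cd14, Myd88 and Irak3 this share was 0, and for Tlr4 it was 0.350%. The rule by which reads matching both Tlr1 and Tlr6 were shared out was not given in the sources used here. The levels of these 2 genes therefore carry an uncertainty from shared sequence. Tlr2 and Tlr7 are uncertain for another reason, the few reads given for them below.

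Promoter sequence was printed for Myd88, Tlr6 and Irak3, as a gene that rose, a gene whose change did not pass the threshold and a gene that fell. From the RefSeq table (GRCm38.p6) 10 windows for 7 of the 10 genes were used, each from 250 bases before to 50 bases after a start site. Tlr4 and Tlr7 had no window and Cd14 was left out of the search, so they are named only. The windows were searched on both strands for the word TTCNNNGAA, the kind that STAT factors such as STAT5 bind, and for an NF-kB word, GGG followed by any pair of bases and then TTTCC. The STAT word reads the same on both strands, and the end of the NF-kB word can share bases with the start of a STAT word. Matches stand in capitals, and each window reads 5′ to 3′ on the strand of its gene.

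Myd88, chr9:119339969-119340268, minus strand: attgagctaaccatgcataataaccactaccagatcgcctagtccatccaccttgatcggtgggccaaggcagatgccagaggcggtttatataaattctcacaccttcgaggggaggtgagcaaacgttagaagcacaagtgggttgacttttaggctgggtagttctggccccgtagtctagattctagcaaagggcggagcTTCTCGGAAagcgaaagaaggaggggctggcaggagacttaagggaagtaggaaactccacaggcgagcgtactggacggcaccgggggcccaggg

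Tlr6, chr5:64959999-64960298, minus strand: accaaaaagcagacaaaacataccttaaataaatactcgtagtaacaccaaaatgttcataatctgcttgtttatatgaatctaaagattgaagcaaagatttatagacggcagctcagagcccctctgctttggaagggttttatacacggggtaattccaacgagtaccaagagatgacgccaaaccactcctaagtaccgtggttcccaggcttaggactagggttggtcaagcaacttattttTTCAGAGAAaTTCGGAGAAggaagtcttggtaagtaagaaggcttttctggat

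Irak3, chr10:120201548-120201847, minus strand: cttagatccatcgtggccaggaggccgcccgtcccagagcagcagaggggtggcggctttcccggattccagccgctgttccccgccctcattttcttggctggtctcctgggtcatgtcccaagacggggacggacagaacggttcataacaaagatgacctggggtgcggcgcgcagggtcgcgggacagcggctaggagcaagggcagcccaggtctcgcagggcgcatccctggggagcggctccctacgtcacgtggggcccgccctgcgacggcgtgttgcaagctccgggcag

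The Myd88 window held 1 STAT word, which begins 46 bases before the start site. This Tlr6 window, 1 of the 2 for that gene, held 2 STAT words, which begin 3 bases before the start site and at base 8 after it. Neither Irak3 window held a match. Of the 10 windows, 3 held a STAT word, these and 1 window of Tlr1, and 0 held the NF-kB word. Of all 32851 windows, 8.30% held a STAT word and 1.63% the NF-kB word. A match is a description of letters in this window and not a binding site, and the lack of one says only that these letters are not there.

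GM-CSF raised 2 of the 8 genes tested, Tlr4 and Myd88, beside 7.68% of all genes tested, and lowered 2, Irak3 and Tlr13, beside 14.2%. The 4 others, Tlr1, Tlr6, Tlr9 and Cd14, did not pass, and Tlr2 and Tlr7 lay under the filter at 1 FPKM. The groups did not overlap for 7 of the 10 genes, the 4 called ones with Tlr9, Cd14 and Tlr2, beside 39.2% of all genes tested. Calls of the 4 genes held under all 14 processing alternatives run.

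**Figure D2:**
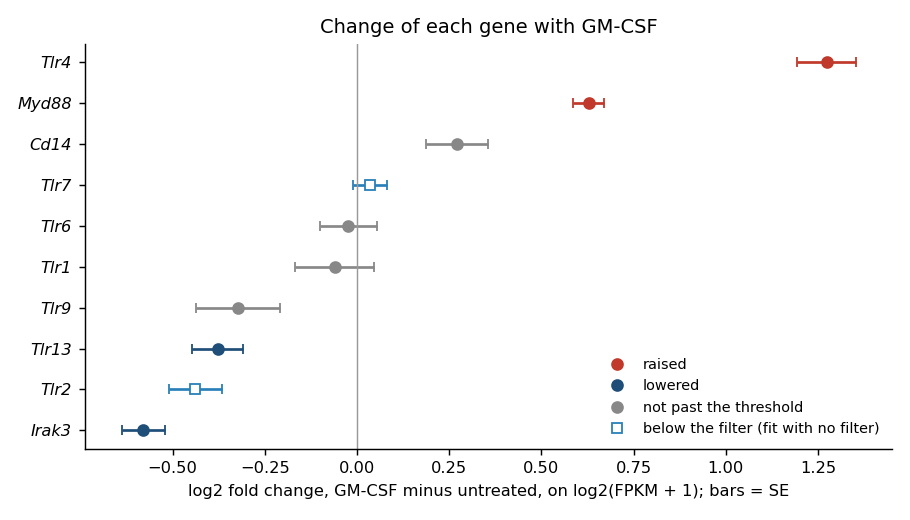
Log2 change of each gene, GM-CSF minus untreated on log2(FPKM + 1), with bars of 1 SE, for genes raised (red), lowered (dark blue) or not past the threshold (grey), and open squares for the 2 genes under the filter, taken from a fit with no filter. Tlr4 (1.27) and Myd88 (0.63) stand to the right of 0, Irak3 (-0.58) and Tlr13 (-0.38) to the left.

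Tlr4, the lipopolysaccharide receptor (chromosome 4, 66827551 to 66846581, plus strand, GRCm38), rose the most of the 10 genes. It measured 9.29, 7.70 and 8.18 FPKM in untreated libraries and 21.7, 20.4 and 22.9 in GM-CSF libraries. Every GM-CSF library lay above every untreated library by more than the spread within either group. The mean went from 8.39 ± 0.815 to 21.7 ± 1.25 FPKM, a ratio of 2.58, and the log2 change was 1.27 ± 0.08 (adjusted p = 0.000121). These values rested on an estimated 758 to 2730 reads per library.

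Its partners did not follow at the same size. Cd14, the co-receptor that hands lipopolysaccharide to TLR4, measured 21.3, 20.3 and 20.5 FPKM in untreated and 25.6, 28.0 and 22.2 in GM-CSF libraries. All 3 GM-CSF values were above all untreated ones, the lowest of them by less than the SD of its own group. The difference did not pass (log2 change 0.27 ± 0.08, adjusted p = 0.0664). It passed without GM-CSF replicate 3 (adjusted p = 0.0141) and with median-of-ratios scaling (0.0389), and over all alternatives the adjusted p ranged from 0.0141 to 0.167. Ly96, the MD-2 gene, named here for its role as the partner of TLR4, averaged 9.18 FPKM in untreated and 6.64 in GM-CSF libraries, which overlapped (log2 change -0.40 ± 0.15, adjusted p = 0.122), and passed only without untreated replicate 1 (0.0109).

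Within single libraries the proportions of these genes shifted without overlap. Cd14 stood at 2.29 to 2.64 times the level of Tlr4 in untreated libraries and at 0.971 to 1.37 times in GM-CSF libraries. Ly96 stood at 0.742 to 1.33 times Tlr4 in untreated and at 0.271 to 0.352 times in GM-CSF libraries. These ratios describe transcript levels and were not tested.

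Tlr6 and Tlr1, the alternative partners of TLR2, differed less between the groups than within them. Tlr6 measured 22.9, 19.98 and 22.4 FPKM in untreated and 19.5, 22.4 and 22.3 in GM-CSF libraries. The log2 change of Tlr6 was -0.02 (95% interval -0.21 to 0.16, adjusted p = 0.873), and this sign turned with the scaling (0.035 with median-of-ratios scaling). Tlr1 measured 4.96, 3.70 and 4.60 FPKM in untreated and 4.06, 3.95 and 4.54 in GM-CSF libraries. The log2 change of Tlr1 was -0.06 (95% interval -0.32 to 0.20, adjusted p = 0.747), a sign that also turned (0.013 with quantile normalization). Tlr6 stood at 4.62 to 5.68 times Tlr1 over the 6 libraries. The longer of the 2 transcripts listed for Tlr1, of 3021 nt, took between 0 and 27.6% of the FPKM of the gene, with no separation of the groups.

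Tlr2, the shared partner of Tlr1 and Tlr6 (chromosome 3, 83836272 to 83841824, minus strand), was far scarcer than either and lower with GM-CSF. It measured 0.722, 0.627 and 0.726 FPKM in untreated and 0.305, 0.133 and 0.315 in GM-CSF libraries. The groups did not overlap, and the library with the most reads, GM-CSF replicate 2, had the lowest value. These levels correspond to 50, 45 and 49 reads in untreated and 20, 13 and 19 reads in GM-CSF libraries. Summed, that is 144 reads (95% Poisson interval 121.4 to 169.5) against 52 (38.8 to 68.2), intervals that cover counting error only. The ratio of group means was 2.76 in favour of untreated libraries. Tlr2 was under the filter, so it has a test only in a fit with no filter on low values. There it passed (log2 change -0.44 ± 0.07, adjusted p = 0.0157), beside 6.8% of 17828 genes lowered in that fit. Leaving out untreated replicate 1 or 3 ended that call (adjusted p = 0.0533 and 0.0550).

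Among the endosomal receptors, Tlr13, the sensor of bacterial ribosomal RNA (chromosome X, 106143275 to 106160493, plus strand), fell. It measured 41.6, 36.4 and 41.9 FPKM in untreated and 29.1, 30.2 and 32.0 in GM-CSF libraries, without overlap. The mean went from 39.9 ± 3.12 to 30.5 ± 1.47 FPKM (log2 change -0.38 ± 0.07, adjusted p = 0.00984). These values rested on an estimated 2744 to 4238 reads per library. Tlr9, the receptor for unmethylated DNA (chromosome 9, 106222598 to 106226876, plus strand), was a minor transcript at 2.95, 2.25 and 2.69 FPKM in untreated and 2.09, 1.60 and 2.03 in GM-CSF libraries. All GM-CSF values were under all untreated values, but the difference did not pass (log2 change -0.32 ± 0.11, adjusted p = 0.0978, between 0.0583 and 0.235 over the alternatives). Tlr7, the receptor for single-stranded RNA (chromosome X, 167303380 to 167330574, minus strand), measured 0.0757, 0.198 and 0.0776 FPKM in untreated and 0.137, 0.146 and 0.149 in GM-CSF libraries. These are 33 reads over the untreated and 43 over the GM-CSF libraries, with 95% Poisson intervals of 22.7 to 46.3 and 31.1 to 57.9, and a difference was not detectable at this depth (adjusted p = 0.710 with no filter).

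The 5 remaining receptor genes of the mouse family were at most 0.150 FPKM in any library. Tlr3 was at 0.0106 to 0.0980 FPKM, Tlr12 at 0 to 0.150 and Tlr5 at 0 to 0.117. Tlr8 was represented by 1 read in all, in untreated replicate 1. Tlr11 was listed at 0 in all 6 libraries.

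The summed level of all 12 receptor genes overlapped between the groups, at 71.0 to 82.6 FPKM in untreated and 77.2 to 84.4 in GM-CSF libraries, while its makeup shifted. Tlr13 held 50.3% to 51.9% of it in untreated libraries and 37.7% to 38.3% in GM-CSF libraries. Tlr4 held 10.1% to 11.2% in untreated and 25.8% to 28.1% in GM-CSF libraries. The share of Tlr6 was 27.7% to 28.1% and 25.3% to 28.4%, which overlapped. Tlr13, Tlr6 and Tlr4 were thus the 3 largest shares in every library.

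**Figure D3:**
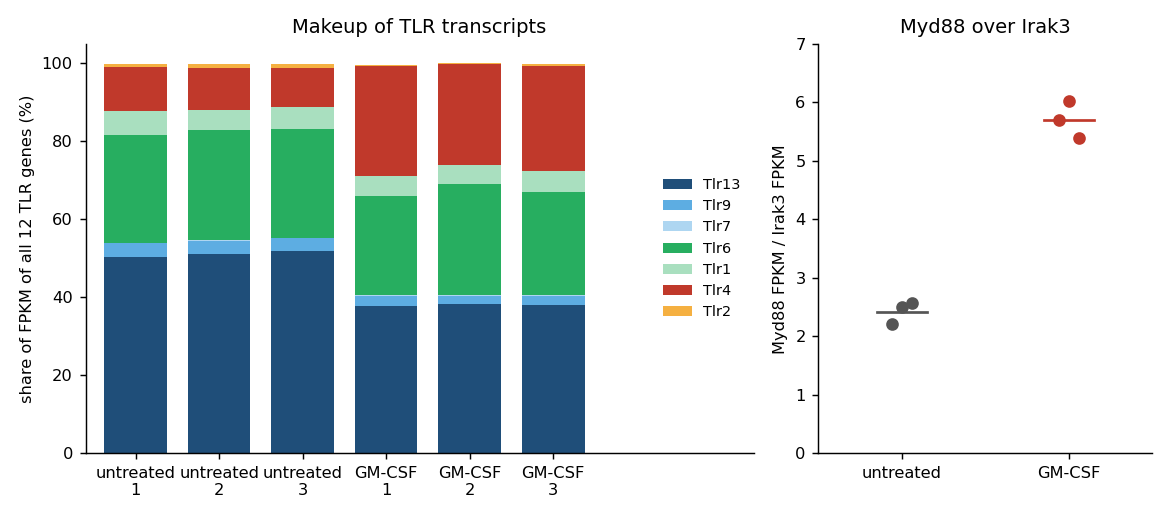
Left, share of the summed FPKM of the 12 receptor genes held by each of 7 receptors, stacked for each library. Right, Myd88 FPKM divided by Irak3 FPKM in each library, with a line at each group's mean. The share of Tlr4 is between 25.8% and 28.1% with GM-CSF against 10.1% to 11.2% without, and the ratio on the right is between 5.39 and 6.02 against 2.20 to 2.57.

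Myd88 and Irak3, which act on the same signalling step in opposite ways, moved in opposite directions. Myd88 (chromosome 9, 119335934 to 119340018, minus strand) measured 74.5, 74.5 and 79.3 FPKM in untreated and 117.9, 120.8 and 115.8 in GM-CSF libraries. The groups lay far apart relative to their spread, with means of 76.1 ± 2.80 and 118.2 ± 2.53 FPKM, a ratio of 1.55 (log2 change 0.63 ± 0.04, adjusted p = 0.000159). Irak3 (chromosome 10, 120141648 to 120202130, minus strand) measured 33.8, 29.8 and 30.9 FPKM in untreated and 20.7, 20.1 and 21.5 in GM-CSF libraries. Its mean went from 31.5 ± 2.06 to 20.7 ± 0.703 FPKM (log2 change -0.58 ± 0.06, adjusted p = 0.000996). Myd88 stood at 2.20, 2.50 and 2.57 times Irak3 in untreated libraries and at 5.70, 6.02 and 5.39 times in GM-CSF libraries. The ratio is a description and was not tested.

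Markers of B cells, T cells, macrophages and epithelium were lower in sum with GM-CSF. The sum of the eosinophil markers was lower too, with the largest fall in Alox15, but not all of those genes fell, as given further below. These differences stand beside the falls of Irak3 and Tlr13 and the lower values of Tlr9 and Tlr2. The summed level of 7 B and plasma cell markers was 32.3 to 40.1 FPKM in untreated and 17.0 to 18.4 in GM-CSF libraries. Of these 6 were tested and all 6 were lowered, but the call of Igj held in only 4 of 14 alternatives, that of Mzb1 in 6 of 13 and that of Pou2af1 in 8 of 13. Without GM-CSF replicate 2 or GM-CSF replicate 3 the lowered B and plasma cell markers numbered 3, with adjusted p of 0.119 and 0.114 for Igj, 0.0817 and 0.0856 for Mzb1, and 0.0590 and 0.0638 for Pou2af1. Leaving out any other library left 4 or 5 of the 6. The counts of this and the other marker lists stand beside 7.68% raised and 14.2% lowered of all genes tested.

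The summed level of 9 macrophage, monocyte and dendritic cell markers was 49.8 to 63.8 FPKM in untreated and 33.9 to 39.8 in GM-CSF libraries, and Mertk was listed at 0 in 5 of the 6 libraries. Of these 4 were tested, and Csf1r, Apoe and Lyz2 were lowered. The Lyz2 call held in only 4 of 14 alternatives and ended without untreated replicate 1 or 3 (adjusted p = 0.111 and 0.120) or GM-CSF replicate 2 or 3 (0.111 and 0.113). The sum of 6 T cell markers was 26.9 to 28.0 FPKM against 14.6 to 17.1. Of these 4 were tested and all 4 were lowered, of which the Cd3d call held in 6 of 14 alternatives and ended when any library but untreated replicate 2 was left out (adjusted p between 0.0581 and 0.0939). The Lck call held in 12 of 13 alternatives and ended when only the highest transcript of each gene was used (adjusted p = 0.171).

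The sum of 7 epithelial markers was 48.5 to 53.6 FPKM in untreated and 31.6 to 42.4 in GM-CSF libraries. Of these 6 were tested and Krt8, Krt19 and Lyz1 were lowered, of which the Krt8 call ended without untreated replicate 1, 2 or 3 (adjusted p = 0.0790, 0.0817 and 0.0884). Epcam went the other way in mean, from 11.8 to 14.6 FPKM, with groups that overlapped, and did not pass (log2 change 0.27, adjusted p = 0.198). Of 6 mast cell and basophil markers 3 were tested and Kit was lowered (log2 change -0.75), while the sums overlapped and Mcpt8 was listed at 0 throughout. Of 6 plasmacytoid dendritic cell markers, 2 were tested and Irf8 was lowered, a call that ended without GM-CSF replicate 1, 2 or 3 (adjusted p = 0.0624, 0.0575 and 0.0645), while the sum overlapped at 17.0 to 19.6 and 18.9 to 23.4 FPKM. Most of that sum was Bst2, which was higher without overlap (means of 15.5 and 19.5 FPKM) but did not pass. Irf8, with Siglech and Tcf4, which lay under the filter, was lower without overlap. Groups did not overlap for 39.2% of all genes tested. The part of these cells in the falls was not tested, and in bulk RNA fewer cells of a type and less RNA per cell cannot be told apart.

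Neutrophil markers, from cells that also express Tlr4 and Myd88, did not move as a group. Of 7 found, 4 were tested, with a median log2 change of -0.43. Cxcr2, a chemokine receptor gene, was raised from 23.8 to 109.3 FPKM (log2 change 2.15, adjusted p = 7.78e-06). S100a8 was lowered from 15.1 to 8.48 FPKM, and S100a9 (48.2 and 36.9) and Ngp (3.66 and 2.40) did not pass. The sum of the list, 86.2 to 97.0 FPKM in untreated and 152.9 to 161.2 in GM-CSF libraries, was higher through Cxcr2, and Elane and Camp were listed at 0 throughout. Of 6 stromal and endothelial markers Pdgfra was the only one tested and was raised from 3.50 to 8.27 FPKM (log2 change 1.04), a call that held in 13 of 14 alternatives (largest adjusted p = 0.0530). The part of any of these cells in the rises of Tlr4 and Myd88 was not tested.

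Eosinophil markers themselves changed in part, with none at 0 in any library. The sum of the 7 was 1274.2 to 1432.4 FPKM in untreated and 959.8 to 1120.2 in GM-CSF libraries, and Alox15 had the largest fall in FPKM. Of 7 tested, Epx, Il5ra and Alox15 were lowered and 4 did not pass. Among those 4, Emr1 was higher without overlap (means of 367.8 and 426.4 FPKM). Siglec5 (170.1 and 170.4) and Ccr3 (289.0 and 251.3) overlapped between the groups. Mean levels went from 25.1 to 11.2 FPKM for Il5ra (log2 change -1.10) and from 460.6 to 157.0 for Alox15 (-1.54). The granule genes were lower in level, with Epx at 6.62 and 4.27 FPKM and Prg2, which did not pass, at 8.85 and 8.93. The Epx call held in 8 of 14 alternatives and ended without untreated replicate 1, 2 or 3 (adjusted p = 0.0530, 0.115 and 0.107) or GM-CSF replicate 2 (0.0510).

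Beyond the 10 genes, Irf5 and Traf6 rose most in the pathway downstream of MyD88, and the larger part of it did not pass. Of 19 kinases, ligases and transcription factors, 18 were tested, 5 were raised, 2 were lowered and 11 did not pass, with a median log2 change of 0.04 beside -0.05 for all genes tested. The counts of this and the following pathway lists stand beside 7.68% raised and 14.2% lowered of all genes tested. Irf5, a transcription factor that MyD88 activates, rose from 55.4 ± 2.33 to 142.2 ± 6.47 FPKM (log2 change 1.34 ± 0.05, adjusted p = 1.74e-05). Traf6, the ubiquitin ligase that IRAK kinases engage, rose from 10.3 ± 0.781 to 24.3 ± 0.977 FPKM (log2 change 1.17 ± 0.07, adjusted p = 8.88e-05). The other genes raised were Traf3, Nfkb1 and Tab2, with log2 changes of 0.45, 0.46 and 0.27, of which the Traf3 call ended when only the highest transcript of each gene was used (adjusted p = 0.0511). The kinase gene Ikbkb was lowered (-0.25), a call that ended in that setting (0.0873) and without untreated replicate 1 or 3 (0.0545 and 0.0571) or GM-CSF replicate 1 (0.0568). Irf7, an interferon factor downstream of the endosomal receptors, fell by 0.54 on the log2 scale, from 6.59 to 4.26 FPKM (adjusted p = 0.0171). The Irf7 call ended under 6 of 14 alternatives, 4 of them the leaving out of untreated replicate 1 or 2 (adjusted p = 0.0529 and 0.0637) or GM-CSF replicate 1 or 2 (0.0550 and 0.0553).

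The other adaptors and IRAK genes were mostly not past the threshold. Of 8, 6 were tested, 0 were raised and 1 was lowered, with a median log2 change of 0.04. Irak4, the kinase that opens the MyD88 complex, went from 17.2 to 13.2 FPKM (log2 change -0.35 ± 0.08, adjusted p = 0.0199), a call that ended without GM-CSF replicate 1 (0.0646) or 3 (0.0626). Of 14 other negative regulators, 13 were tested, 5 were raised and 2 were lowered, with a median log2 change of 0.09. Socs1, an inhibitor of cytokine receptor signalling that also limits this pathway, rose from 3.77 ± 1.16 to 88.6 ± 18.1 FPKM (log2 change 4.24 ± 0.21, adjusted p = 5.08e-05). Il1rl1, which encodes the receptor for IL-33, rose from 1.02 to 2.40 FPKM (log2 change 0.76, adjusted p = 0.00348). Tnip1, a partner of the ubiquitin-editing enzyme A20, fell from 20.3 to 13.2 FPKM (-0.58, adjusted p = 0.00114), a call that ended when only the highest transcript was used (0.115). Tnfaip3, the A20 gene itself, rose from 30.5 to 38.8 FPKM (0.34, adjusted p = 0.00287), a call that ended in the same setting (0.835). Of the other calls, the rise of Atf3 held in 6 of 14 alternatives, and the fall of Inpp5d ended with the highest transcript (0.559).

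Genes that carry and process the endosomal receptors were lowered or did not pass. Of 9, all were tested, 0 were raised, 4 were lowered and 5 did not pass, with a median log2 change of -0.20 beside -0.05 for all genes tested. Of all genes tested 7.68% were raised and 14.2% were lowered, so that 0 raised among 9 is close to the share over all genes. Unc93b1, the escort of the endosomal receptors, went from 18.3 to 12.4 FPKM (log2 change -0.52 ± 0.12, adjusted p = 0.0270). Its call ended under 6 of 14 alternatives, among them the leaving out of untreated replicate 2 or 3 (adjusted p = 0.0684 and 0.0558) or GM-CSF replicate 1 or 3 (0.0798 and 0.0749). Lgmn, a protease that cleaves TLR9, fell from 24.0 to 14.6 FPKM (log2 change -0.68, adjusted p = 0.000868) and Cnpy3, a folding partner of the receptors, from 89.2 to 72.2 (-0.30, 0.00252). The remaining gene lowered was the cathepsin gene Ctsb (-0.21, 0.0138), a call that ended with median-of-ratios scaling (0.0590). Of 5 co-receptor and accessory genes 2 were tested, and Ly86, which encodes the MD-2 relative MD-1, fell from 25.6 to 17.7 FPKM (log2 change -0.52 ± 0.10, adjusted p = 0.0106).

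Genes that TLR signalling induces in other cells did not move together. Of 13 such cytokine and enzyme genes, 8 were tested, 1 was raised, 1 was lowered and 6 did not pass, with a median log2 change of -0.12. Il1b, an inflammatory cytokine gene, rose from 948.4 to 1317 FPKM (log2 change 0.47, adjusted p = 0.00211). The chemokine gene Ccl5 fell from 16.4 to 9.97 FPKM (-0.66, 0.0188), a call that ended without GM-CSF replicate 1 (adjusted p = 0.0614) or 2 (0.0575). Tnf, named here after its values were seen as the best known of these genes, had a log2 change of -0.01 (adjusted p = 0.932).

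**Figure D4:**
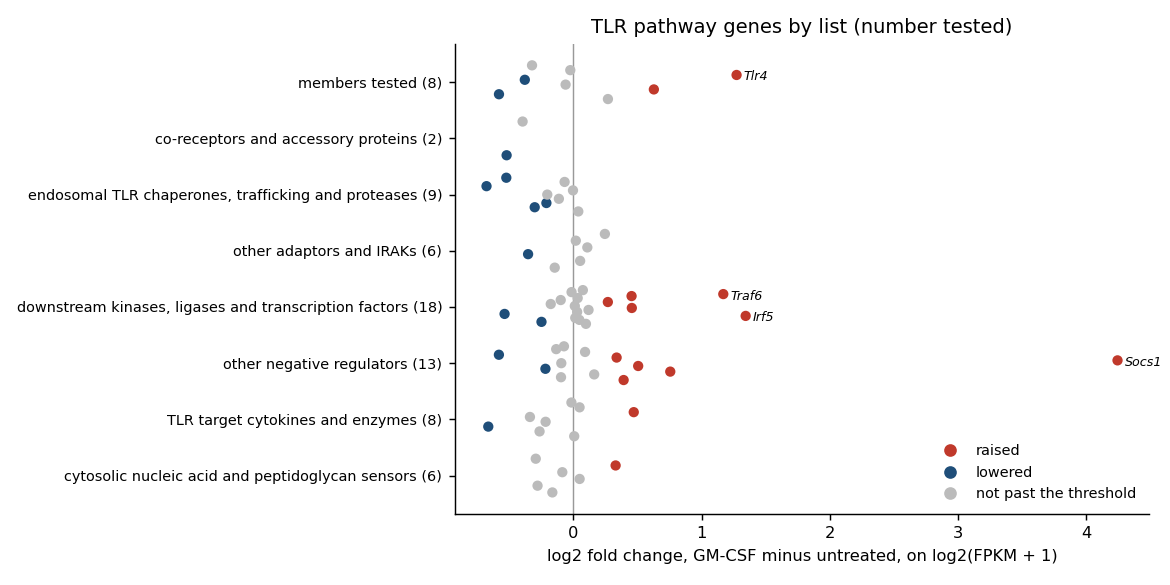
Log2 change (GM-CSF minus untreated, on log2(FPKM + 1)) of each tested gene in the pathway lists, with the number tested in brackets, in red where raised, dark blue where lowered and grey where not past the threshold. Genes past 1 on the axis are named, Tlr4 (1.27), Traf6 (1.17), Irf5 (1.34) and Socs1 (4.24). The list of endosomal carriers and proteases has no red point, beside 7.68% raised of all genes tested.

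The genes whose profiles over the 6 libraries were most like those of Tlr4 and Irak3, the largest rise and the largest fall past the threshold among the 10 genes, were found by the root mean square difference of log2 profiles. Among 3411 genes with a mean of 20 FPKM or more, the profile closest to that of Tlr4 was that of Nampt, a NAD synthesis enzyme, at a difference of 0.0447. It was followed by the transcriptional regulator gene Bhlhe40 (0.0612) and the lectin gene Cd33 (0.0889). Nampt went from 16.6 to 42.3 FPKM. Among 3410 genes, the profiles closest to that of Irak3 were those of Sh3bp5 (0.0461), Haus8 (0.0485) and Grina (0.0492). With 6 libraries in 2 groups, this measure mainly ranks genes by how close the size of their change is.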

How the data were processed

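Polyadenylated RNA of 6 eosinophil cultures was sequenced, from Trizol RNA and TruSeq Stranded mRNA libraries per the labels' protocols. Per the submitters' processing notes, the tools included Cufflinks, TopHat, TopHat2 and bcl2fastq 1.8.4, on the build mm10, in an order and with settings that are not stated. The kit keeps strand, but whether counting used it is not stated, so overlapping antisense genes may share reads. The authors deposited FPKM per RefSeq transcript (30374 per library), per the file headers, beside a coverage signal, also deposited by the authors. The mm10 genome is of C57BL/6J and the mice were BALB/c. What strain differences did to alignment was not tested.

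FPKM were summed per symbol (23283). Those whose mean reached 1 FPKM were tested with limma 3.58.1 (R 4.3.3; empirical Bayes with trend, two-sided, Benjamini-Hochberg, threshold 0.05) on log2(FPKM + 1). The fit was tested on simulated data. Coverage divided by FPKM gave the mapped bases of each library. Reads behind a value were taken as coverage times (length minus 205 nt) divided by 36 nt. On genes with a single transcript of 1500 to 6000 nt, 73.1% of 12149 values under 20 reads came within 0.1 of a whole number, against 13.5% for a read of 40 nt with the same 205 nt taken off. The 36 nt and 205 nt gave the highest such share among the values tried, so the share is a fit and not a separate check. No count test was run, since the files hold no counts.

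Of 152 entries in the gene and marker lists, 149 matched a symbol, 1 an alternative symbol and 2 were not matched. The genes and lists were chosen with earlier results of these data known. Named genes are the 10 genes always, then of each pathway list up to 3 genes past the threshold with the largest change, and for Tlr4 and Irak3 the 3 genes of 20 FPKM or more with the closest profile. Other names, including the remaining called genes of short lists, were added after their values were seen. Alternatives covered the pseudocount, the filter, scaling, the transcript used, the trend, each library left out and a replicate term. Python 3.11.15 was used for tables.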

Additional observations from a re-analysis of the deposited data

How the results depend on the processing

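Under the 14 alternatives, Tlr4, Myd88, Irak3 and Tlr13 kept their direction and passed each time. Of the 10 genes 2 or 3 were raised, the added one being Cd14, and 2 or 3 lowered, the added one being Tlr2. The number of genes lowered was 1436 and went from 888 (without untreated replicate 2) to 1117 when 1 library was left out, and the number raised, 776, from 627 to 715. These fits also hold fewer libraries, and the cause of the smaller numbers was not tested. The log2 change of Tlr1 turned in sign with quantile normalization (0.013) and, over the fits that left out 1 library, ranged from -0.16 to 0.012, turning without untreated replicate 1. That of Tlr6 turned in sign with median-of-ratios scaling (0.035) and quantile normalization (0.0019) and, over the fits that left out 1 library, ranged from -0.081 to 0.039, turning without untreated replicate 1 (0.013) and GM-CSF replicate 1. With no filter and a pseudocount of 0.1 FPKM the log2 change of Tlr2 was -1.22 (adjusted p = 0.0431), against -0.44, an alternative chosen after seeing the data.

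Untreated and GM-CSF cultures share replicate numbers. Deviations of same-numbered libraries from their group means correlated at -0.03, 0.05 and -0.02 over the genes tested, which gave no sign of pairing. With so few libraries, these values cannot show whether same-numbered cultures had a common source. A fit with the replicate block gave 723 genes raised and 1273 lowered, with Tlr4 and Myd88 raised and Irak3 and Tlr13 lowered, as without it. Among the listed genes the block ended the calls of Irak4 (adjusted p = 0.0560), Irf7 (0.0514) and Nod2 (0.0575) and of the markers Lyz2 (0.0750), Igj (0.0801), Mzb1 (0.0794), Pou2af1 (0.0505) and Cd3d (0.0722). It added calls for Dusp1 (0.0374), Cxcl2 (0.00997) and Ccl4 (0.0241), the last 2 lowered TLR targets, and for the markers Ccr3 (0.0187, lowered) and Bst2 (0.0139, raised). Depth limits Tlr7 and the 5 scarcer receptors, which rest on few reads.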

Other observations

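Sensors of microbial molecules outside the Toll-like family were also present. Of 6 cytosolic sensor genes all were tested, 1 was raised, 0 were lowered and 5 did not pass, with a median log2 change (GM-CSF minus untreated) of -0.12 beside -0.05 for all genes tested. Of all genes tested 7.68% were raised and 14.2% were lowered. Nod2, a peptidoglycan sensor, went from 2.02 ± 0.111 to 2.80 ± 0.268 FPKM (± SD, n = 3 each), with a log2 change of 0.33 ± 0.09 (SE; adjusted p by limma 0.0375). This call ended in 5 of the 6 fits that left out a library, with an adjusted p between 0.0762 and 0.115 in those, and passed at 0.0489 without GM-CSF replicate 2. Its relative Nod1, named after its values were seen, was higher in level at 16.5 and 15.4 FPKM and did not pass (log2 change -0.09, adjusted p by limma 0.415).

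Cd180, a receptor that pairs with the product of Ly86 and is named after its values were seen, lay under the filter. With no filter on low values it was lowered (log2 change -0.65 ± 0.12 SE, adjusted p by limma 0.0252), beside 6.8% of 17828 genes. It measured 1.10, 1.08 and 1.5 FPKM in untreated and 0.495, 0.218 and 0.538 in GM-CSF libraries, without overlap, beside the fall of the B cell markers given above. The part of B cells in this difference was not tested.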
